A study of Mus musculus with 18 samples.

Results

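The retinoic acid pathway was followed through 9 genes in the testis of Zfp541 mutant mice: the receptors Rara, Rarb and Rarg, the uptake protein Stra6, the synthesis enzymes Aldh1a1 and Aldh1a2, the breakdown enzyme Cyp26b1, and the binding proteins Crabp1 and Crabp2. They were taken by gene symbol from tables of 49395 symbols at P14 and 55184 at P18, and all 9 were found in each of the 18 tables. Poly(A) RNA was measured in Zfp541-/- (KO) and Zfp541+/- (Het) male C57BL/6J mice in 3 sets: testicular cells at P14, here called P14 testis, testicular cells at P18, here called P18 testis, and spermatocytes at P18. Each of the 6 groups had 3 libraries, which the study calls biological replicates without saying whether each came from 1 animal. The Het mice carry 1 mutant allele, and no wild-type group was analysed here. How the spermatocytes were isolated is not given in the sources used here.

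Retinol enters cells through the receptor STRA6, is oxidised to retinal, and is then oxidised to retinoic acid by the ALDH1A enzymes. Retinoic acid binds nuclear RAR receptors, which act on DNA as dimers with RXR receptors, while CRABP proteins bind it in the cytoplasm and CYP26 enzymes break it down. In the mouse testis ALDH1A1 is known as a Sertoli cell enzyme, ALDH1A2 as an enzyme of spermatocytes and CYP26B1 as an enzyme of peritubular myoid cells, and retinoic acid is needed for spermatogonia to differentiate and for germ cells to enter meiosis.

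Levels are the deposited RPKM (P14 testis and spermatocytes) or FPKM (P18 testis), that is reads or fragments scaled to gene length and library size, and are given in the order of replicates 1, 2 and 3. Library size, recovered from the values in units of M (mega) reads, was 17.94 to 21.12 at P14. P18 testis libraries held 12.8 to 16.95 M reads, spermatocyte libraries 9.26 to 18.32 M reads, and 1 read on a gene of 1 kb was worth 0.0474 to 0.108. Differences are log2 values ± SE from limma after rescaling, with p-values adjusted by the Benjamini-Hochberg method over all genes tested, a threshold of 0.05, and 3 libraries per group. Zfp541 itself was at 3.15, 3.9 and 5.08 in KO P14 testis and at 7.61, 8.99 and 9.35 in Het. It was at 11.7, 9.42 and 10.8 in KO P18 testis against 27.9, 23.4 and 21.3 in Het, and at 14.5, 12.9 and 12.6 in KO spermatocytes against 37.3, 32.4 and 48.7 in Het. All KO libraries lay below all Het libraries of their set, and transcript remained in every KO library. The difference at P14, -1.03 ± 0.15, missed the threshold (adjusted p = 0.0773) and met it without KO replicate 3 (-1.18, adjusted p = 0.0366). Zfp541 fell in P18 testis by a log2 difference of -1.25 ± 0.14 (adjusted p = 0.00494). The value in spermatocytes was -1.75 ± 0.20 (adjusted p = 0.00079).

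The spermatocyte label was met by the markers in part. Sycp3, a protein of the synaptonemal complex, was at 406 to 449 in KO spermatocytes and 353 to 391 in Het, against 239 to 279 and 269 to 314 in KO and Het P18 testis. Ldhc, a lactate dehydrogenase of pachytene and later germ cells, was at 16.2 to 31.4 in KO spermatocytes and 553 to 1080 in Het, against 48.6 to 52.4 and 254 to 610 in KO and Het P18 testis. In KO spermatocytes the 14 spermatocyte markers summed to less than in Het P18 testis, and spermatogonial markers summed to more than in testis, with the values given beside Aldh1a2 and Rarg. The 22 Sertoli markers summed to 162 to 210 in KO spermatocytes and 102 to 181 in Het spermatocytes, against 2280 to 2310 and 1510 to 1980 in KO and Het P18 testis. Dmrt1, which germ cells also express, made up a large part of that sum in spermatocytes (120 to 134 in KO and 52.3 to 77.4 in Het), while Clu, clusterin, was at 9.65 to 24 in KO spermatocytes and 15.3 to 29.3 in Het. Myoid markers were not depleted in this way in every library. Acta2, smooth muscle actin, was at 29.7 to 115 in KO spermatocytes, against 76 to 98.1 in KO P18 testis. It was at 30.3 to 104 in Het spermatocytes, against 57.5 to 80.7 in Het P18 testis. The sum of 7 myoid markers was 85.6, 185 and 309 in KO spermatocytes, against 230 to 283 in KO P18 testis. In Het it was 87.4, 258 and 177, against 175 to 228. In all these samples, fewer cells of a type and less RNA per cell cannot be told apart.

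Direct repeats of the receptor half-site were looked for in promoter windows, since receptor genes of this pathway are themselves known targets of retinoic acid. RefSeq windows on GRCm38.p6, of 250 bases before to 50 bases after a gene start, were present for 8 of the 9 genes (16 windows of 300 bases, since some genes have several starts), and Crabp2 had none. A half-site was GGTTCA or its relative AGTTCA, both known from the Rarb promoter, AGGTCA as the general form of the site, or the variant GGGTCA. The search was for 2 half-sites in the same orientation with 1, 2 or 5 bases between them, on both strands. A repeat was present in the Rarb window alone among these 16, with 5 bases in between, at positions -53 to -37 from the start, and in 193 of all 32851 windows (0.588%). A repeat with 5 bases in between was in 32 windows (0.0974%). A match is a description of letters and not a measured site. The match in Rarb was to be found, since half-sites known from its own promoter were searched for, and it supports nothing. The 250 bases before the start are shown for Rarb, with the half-sites in capitals, and for Aldh1a2 and Crabp1, whose levels moved in KO spermatocytes and whose windows held no such repeat; Rarb lies at chr14:16575477-16575726 on the minus strand, Aldh1a2 at chr9:71215539-71215788 on the plus strand and Crabp1 at chr9:54764498-54764747 on the plus strand.
Rarb: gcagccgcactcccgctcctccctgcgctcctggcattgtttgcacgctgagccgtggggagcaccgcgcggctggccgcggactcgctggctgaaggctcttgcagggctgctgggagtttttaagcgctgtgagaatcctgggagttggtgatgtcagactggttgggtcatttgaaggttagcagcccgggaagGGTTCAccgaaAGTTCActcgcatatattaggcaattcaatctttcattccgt
Aldh1a2: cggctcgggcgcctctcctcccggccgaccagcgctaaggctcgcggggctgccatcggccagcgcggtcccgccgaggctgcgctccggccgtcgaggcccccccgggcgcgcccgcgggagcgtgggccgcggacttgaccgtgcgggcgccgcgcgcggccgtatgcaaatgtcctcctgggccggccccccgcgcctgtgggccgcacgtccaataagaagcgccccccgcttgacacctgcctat
Crabp1: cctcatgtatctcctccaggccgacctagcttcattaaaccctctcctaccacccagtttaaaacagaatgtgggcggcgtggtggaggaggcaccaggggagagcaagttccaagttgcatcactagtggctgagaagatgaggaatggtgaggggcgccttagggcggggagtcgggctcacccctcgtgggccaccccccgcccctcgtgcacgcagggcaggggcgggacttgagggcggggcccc
The bases G and C made up 77.6% of the Aldh1a2 sequence, 63.6% of that of Crabp1 and 58% of that of Rarb.

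In P14 testis the genes spanned more than 2 orders of size, with Aldh1a1 at the top in both genotypes. Rarb was at the bottom in Het, while in KO it overlapped there with Crabp2 (0.156 to 0.501). In Het P14 testis Aldh1a1 lay at 204 to 226, and Aldh1a2, Cyp26b1 and Crabp1 followed at 30.4 to 38.8 with overlapping ranges. Rara came next at 11.6 to 14.6, then Stra6 at 4.6 to 5.33, Rarg at 3.87 to 4.47, Crabp2 at 0.421 to 0.716 and Rarb at 0.173 to 0.239. The order in spermatocytes was another one. Crabp1 led in KO spermatocytes at 83.7 to 106, while in Het spermatocytes Aldh1a2 (53.9 to 75.3) and Crabp1 (39.4 to 65.1) overlapped at the top. Stra6 was the lowest gene there in KO, at 0.112 to 0.161, and overlapped with Rarb in Het.

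**Figure D1:**
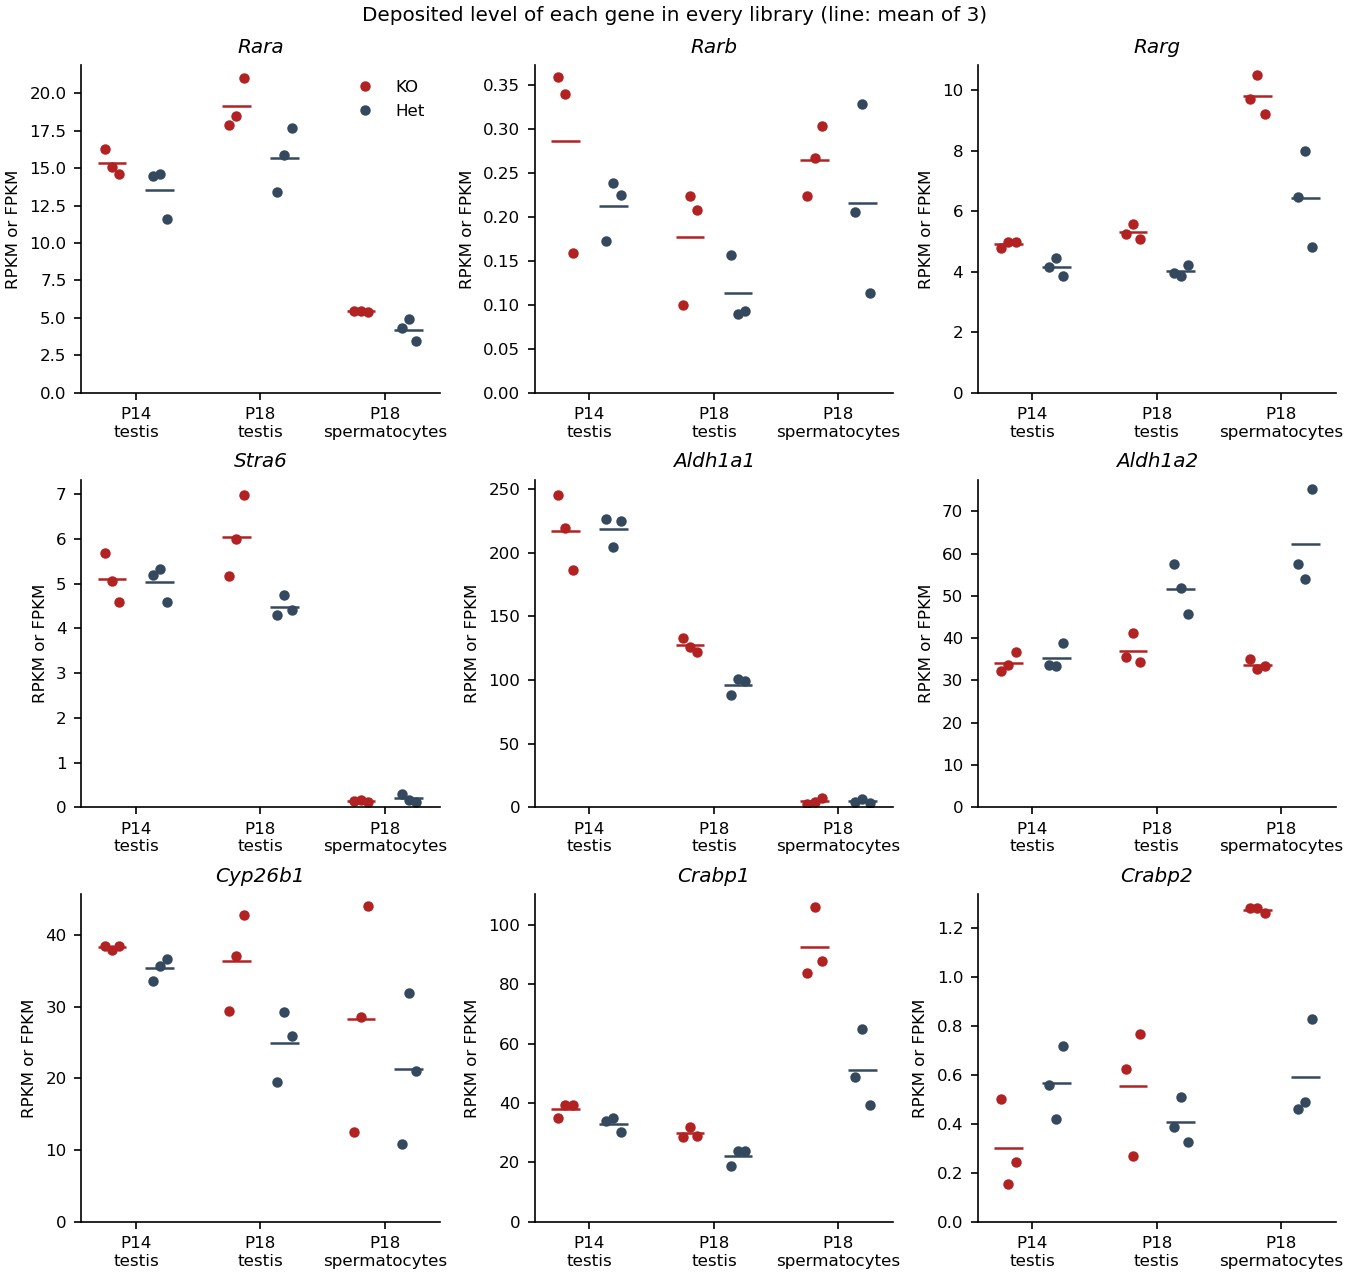
Deposited level (RPKM in P14 testis and P18 spermatocytes, FPKM in P18 testis) of each of the 9 genes in every library; points are libraries, lines are means of 3, red is KO and dark blue is Het, and each panel has its own axis from 0. Aldh1a2 in spermatocytes is at 32.6 to 35 in KO and 53.9 to 75.3 in Het, while Crabp1 is at 83.7 to 106 in KO and 39.4 to 65.1 in Het.

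The question of where in the testis each gene is found was addressed by setting P18 spermatocytes against P18 testis. Of the 8 genes tested, 3 were higher and 3 lower in spermatocytes in KO, and 3 were higher and 3 lower in Het: Rara, Stra6 and Aldh1a1 were lower and Rarg and Crabp1 higher in both, with Crabp2 the other higher gene in KO and Aldh1a2 in Het. Of all genes tested, 61.6% passed in KO (22.9% higher and 38.8% lower) and 58.8% in Het (27% higher and 31.8% lower), so the share of the 8 is near the background. The fractions were deposited in different units, RPKM and FPKM, and the set cannot be told apart from the unit. Rarb was below the filter of a level of at least 1 in at least 3 libraries. Stra6 entered only through its testis libraries and Crabp2 only through its KO spermatocyte libraries, so both had to differ and their calls support nothing.

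**Figure D2:**
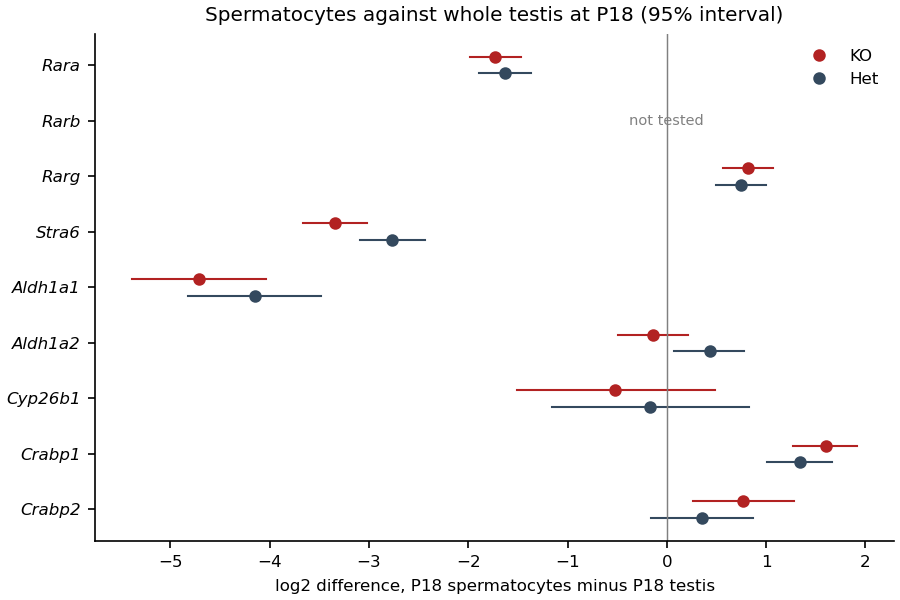
Log2 difference between P18 spermatocytes and P18 testis after rescaling, in KO (red, upper of each pair) and in Het (dark blue), with 95% intervals from limma; Rarb was not tested. Aldh1a1, Stra6 and Rara lie left of 0 in both genotypes and Rarg and Crabp1 right of 0 in both.

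Among the receptors, the balance between Rara and Rarg was turned round in spermatocytes. Rara, the receptor known in Sertoli cells, was at 5.45, 5.46 and 5.4 in KO spermatocytes, against 17.9, 18.5 and 21 in KO P18 testis. It was at 4.3, 4.9 and 3.43 in Het spermatocytes, against 13.4, 15.9 and 17.7 in Het P18 testis. All spermatocyte libraries lay below all testis libraries, and Rara was lower in spermatocytes by a log2 difference of -1.73 ± 0.12 in KO (adjusted p = 3.25e-07) and -1.63 ± 0.12 in Het (adjusted p = 7.9e-07).

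Rarg, the receptor known in spermatogonia, went the other way. It was at 9.72, 10.5 and 9.22 in KO spermatocytes, against 5.26, 5.58 and 5.08 in KO P18 testis. It was at 6.48, 8.01 and 4.83 in Het spermatocytes, against 3.95, 3.87 and 4.23 in Het P18 testis. The fractions did not overlap in either genotype, and Rarg was higher in spermatocytes by 0.82 ± 0.11 in KO (adjusted p = 8.52e-05) and 0.75 ± 0.11 in Het (adjusted p = 0.000211). As a share of the summed level of the 3 receptors, Rarg made up 61.8% to 64.8% in KO spermatocytes and 57.7% to 60.5% in Het spermatocytes. It made up 19.3% to 23% in KO P18 testis and 19.2% to 22.5% in Het P18 testis, and Rara made up the larger part of the remainder in each. The 16 spermatogonial markers also summed higher in KO spermatocytes, to 599 to 702 against 340 to 373 in KO P18 testis. In Het the sums overlapped, at 285 to 441 in spermatocytes and 234 to 302 in P18 testis. The part of these markers in the result was not tested.

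**Figure D3:**
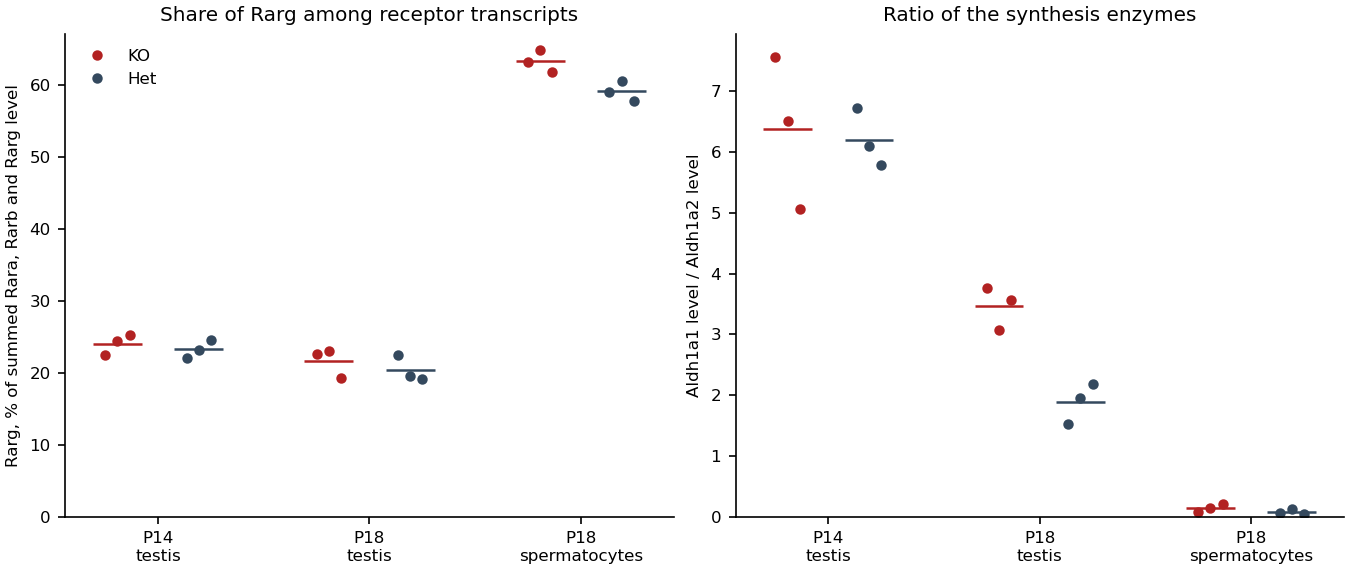
Left, Rarg as a percentage of the summed level of Rara, Rarb and Rarg in every library, and right, the level of Aldh1a1 divided by that of Aldh1a2; points are libraries, lines are means of 3, red is KO and dark blue is Het. Rarg holds 57.7% to 64.8% in spermatocytes and 19.2% to 25.2% in the testis sets, and in P18 testis the ratio is 3.07 to 3.76 in KO and 1.53 to 2.18 in Het.

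By genotype, no receptor passed the test in any set, though Rarg did under some alternatives. In P14 testis none of the 7 genes tested passed, against 0.164% of all genes tested; at an unadjusted p of 0.05, 2 were higher, Rarg and Crabp1, and voom on the recovered reads called none. Rarg was at 4.79, 4.99 and 4.98 in KO P14 testis and at 4.16, 4.47 and 3.87 in Het, with no overlap and a difference of 0.21 ± 0.08 (adjusted p = 0.464). Its KO levels in P18 testis and in spermatocytes, given above, also lay above all Het levels of the same set. The difference was 0.26 ± 0.08 in P18 testis (adjusted p = 0.0611), while spermatocytes gave 0.37 ± 0.14 (adjusted p = 0.0839). Both passed without rescaling (0.36, adjusted p = 0.0269, and 0.60, adjusted p = 0.0293), and P18 testis also with voom (0.30, adjusted p = 0.046). Rarg in spermatocytes also passed with median-of-ratios scaling (0.41, adjusted p = 0.0437), in 1 fit over all 18 libraries (0.48, adjusted p = 0.000363) and without Het replicate 2 (0.52, adjusted p = 0.0237).

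Rara was at 16.3, 15.1 and 14.6 in KO P14 testis and at 14.5, 14.6 and 11.6 in Het. The lowest KO library met the highest Het library there (0.17 ± 0.10, adjusted p = 0.687). In P18 testis the KO libraries were just above the Het libraries as deposited and overlapped with them after rescaling (0.18 ± 0.10, adjusted p = 0.214). In spermatocytes the KO libraries were above all Het libraries, and the difference of 0.13 ± 0.13 did not pass (adjusted p = 0.471). The 95% intervals of the Rara difference ran from -0.07 to 0.41, from -0.05 to 0.42 and from -0.17 to 0.42 in the 3 sets.

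Rarb, whose transcription is a known response to retinoic acid in many cell types, was near the limit of detection. It was at 0.0997, 0.224 and 0.208 in KO P18 testis and at 0.157, 0.0892 and 0.0928 in Het, which are 7 to 20 reads. In spermatocytes it was at 0.224, 0.267 and 0.303 in KO and at 0.206, 0.328 and 0.114 in Het. The groups overlapped in both sets and in P14 testis, where KO was at 0.159 to 0.359 and Het at 0.173 to 0.239. Rarb overlaps Top2b on the opposite strand, 34.1% of its 50-base stretches are shared with Top2b or Gm48162, and no source used here says that reads were counted by strand, so its reads are uncertain.

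Stra6, the uptake receptor, marked the testis libraries and was almost absent from spermatocytes. It was at 0.13, 0.161 and 0.112 in KO spermatocytes, against 5.18, 5.99 and 6.98 in KO P18 testis. It was at 0.302, 0.167 and 0.122 in Het spermatocytes, against 4.29, 4.74 and 4.41 in Het P18 testis. The difference between fractions was -3.34 ± 0.15 in KO and -2.77 ± 0.15 in Het (adjusted p = 2.43e-08 and 1.3e-07), on a scale that understates the fall of so low a gene. Stra6 entered this fit only through its testis libraries, so it had to differ and these p-values support nothing. Between genotypes in P18 testis, all KO libraries were above all Het libraries, without passing the test (0.29 ± 0.12, adjusted p = 0.116). At P14 Stra6 was at 5.69, 5.07 and 4.58 in KO and at 5.19, 5.33 and 4.6 in Het (0.01 ± 0.10, adjusted p = 0.983), and the groups overlapped.

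The synthesis enzymes differed from each other in place and in their response to genotype. In P18 testis 2 of the 7 genes tested were higher in KO, Aldh1a1 and Crabp1, and 1 was lower, Aldh1a2, against 23.1% of all genes tested (5.88% higher and 17.2% lower). In spermatocytes 1 of 7 was higher, Crabp1, and 1 was lower, Aldh1a2, against 34.7% of all genes tested (9.32% higher and 25.4% lower). The fitted differences were moved by the rescaling: without it the median over all genes was 0.12 in P18 testis and 0.17 in spermatocytes, in place of 0.02 and -0.05. The share of all calls that were higher was 46.4% in P18 testis and 54.3% in spermatocytes without rescaling, in place of 25.5% and 26.9%.

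**Figure D4:**
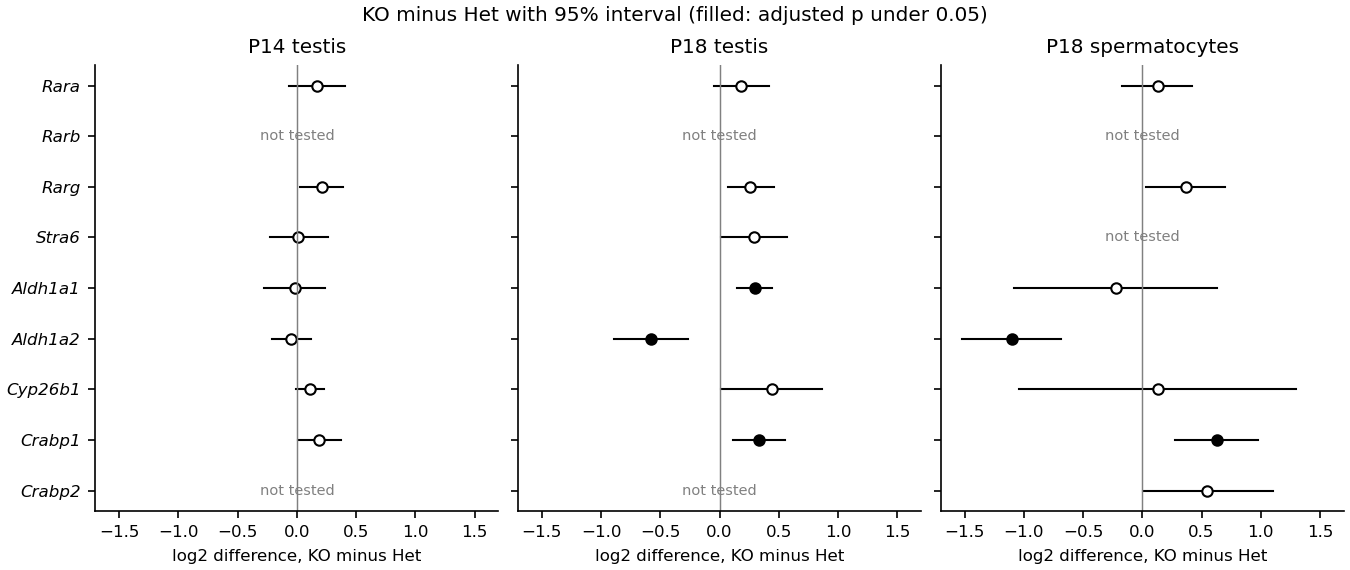
Log2 difference KO minus Het after rescaling, with 95% intervals from limma, in P14 testis, P18 testis and P18 spermatocytes; filled points have an adjusted p under 0.05 over all genes tested. Aldh1a2 is at -0.05, -0.58 and -1.1 and Crabp1 at 0.19, 0.33 and 0.63 in the 3 sets.

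Aldh1a2 was the gene with the largest difference between genotypes among the 9, and it was lower in KO. It was at 35, 32.6 and 33.4 in KO spermatocytes and at 57.6, 53.9 and 75.3 in Het. The KO libraries lay close together and far below all Het libraries. The difference was -1.10 ± 0.18 (adjusted p = 0.0034), 2.15-fold lower in KO, and it passed under all 15 alternatives tried, at -1.21 to -0.82.

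In P18 testis Aldh1a2 was at 35.5, 41.1 and 34.4 in KO and at 57.5, 51.8 and 45.6 in Het. The groups did not overlap, and Aldh1a2 was 1.5-fold lower in KO (-0.58 ± 0.13, adjusted p = 0.0255). The call ended without KO replicate 1 (-0.53, adjusted p = 0.0766), KO replicate 3 (-0.56, adjusted p = 0.0672) or Het replicate 2 (-0.61, adjusted p = 0.0667), and with no filter on low levels (adjusted p = 0.05). At P14 it was at 32.3, 33.6 and 36.8 in KO and at 33.7, 33.4 and 38.8 in Het, with overlapping groups and an interval of the difference from -0.21 to 0.12 (adjusted p = 0.885). Spermatocyte markers moved with Aldh1a2. Of 13 tested, 8 fell in spermatocytes and 9 in P18 testis, against 25.4% and 17.2% of all genes tested, and none rose in either. Their sum over 14 genes was 1000 to 1130 in KO spermatocytes and 1680 to 2340 in Het, and 710 to 820 in KO P18 testis and 1190 to 1600 in Het. At P14 the sum was 367 to 510 in KO and 509 to 675 in Het. There 1 of 11 fell, against 0.153% of all genes tested. The part of these markers in the result was not tested. Within the list Sycp3, at 406 to 449 in KO spermatocytes and 353 to 391 in Het, did not follow Ldhc, which was far lower in KO.

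Aldh1a1 was the highest gene of the 9 in each testis set and far lower in spermatocytes. It was at 2.48, 4.5 and 7.28 in KO spermatocytes and at 3.95, 6.83 and 3.1 in Het, with overlapping groups (-0.22 ± 0.36, adjusted p = 0.672). In P18 testis it was at 133, 126 and 122 in KO and at 87.9, 101 and 99.4 in Het. All KO libraries there were above all Het libraries, and Aldh1a1 was 1.23-fold higher in KO (0.30 ± 0.06, adjusted p = 0.0185). Without Het replicate 2 or any 1 of the 3 KO libraries the adjusted p was 0.0585 to 0.0731 (0.28 to 0.31), and in 1 fit over all 18 libraries it was 0.471 (0.28). At P14 the level was 245, 219 and 186 in KO and 226, 204 and 225 in Het, and the groups overlapped (-0.02 ± 0.11, adjusted p = 0.971). A share of 3.06% of its 50-base stretches is common to Aldh1a7, a close relative.

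Sertoli markers moved with Aldh1a1 in P18 testis. The 22 markers summed to 2280 to 2310 in KO and 1510 to 1980 in Het. Of the 22, 6 rose and none fell, against 5.88% higher and 17.2% lower of all genes tested. Clu was at 624 to 660 in KO and 435 to 585 in Het. Macrophage markers moved in the same comparison, with 7 of 9 higher, none lower and a sum of 81.9 to 92.7 in KO and 48.9 to 61.8 in Het. In P14 testis the Sertoli sum was 1880 to 1970 in KO and 1660 to 1810 in Het, and none of 21 Sertoli markers passed. The part of both marker lists in the result was not tested.

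Between the fractions, Aldh1a1 was lower in spermatocytes than in P18 testis by a log2 difference of -4.71 ± 0.30 in KO and -4.15 ± 0.30 in Het (adjusted p = 2.75e-07 and 1.05e-06), 26.3-fold and 17.7-fold. Aldh1a2 did not pass between fractions in KO (-0.14 ± 0.16, adjusted p = 0.474) and was higher in spermatocytes than in testis in Het (0.43 ± 0.16, adjusted p = 0.0392). The Het call was lost under 9 of 21 alternatives, among them the removal of Het spermatocyte replicate 3 (0.21, adjusted p = 0.103), whose Aldh1a2 level was the highest of all libraries. It was also lost without Het P18 testis replicate 2 (adjusted p = 0.0767) or replicate 3 (adjusted p = 0.124), any 1 KO spermatocyte library (adjusted p = 0.0508 to 0.0516) or KO P18 testis replicate 1 (adjusted p = 0.0508). In KO the sign of the difference turned with median-of-ratios scaling (0.05).

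The ratio of the enzymes, which does not depend on the scaling of a library, brings both changes together. In P18 testis the level of Aldh1a1 was 3.76, 3.07 and 3.56 times that of Aldh1a2 in KO and 1.53, 1.96 and 2.18 times in Het. All KO libraries were above all Het libraries. At P14 the ratio was 7.57, 6.51 and 5.06 in KO and 6.72, 6.1 and 5.78 in Het, with overlap. In spermatocytes Aldh1a2 predominated, with a ratio of 0.0709 to 0.218 in KO and 0.0411 to 0.127 in Het.

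Cyp26b1, which breaks retinoic acid down, varied more within the spermatocyte groups than between them. It was at 12.5, 28.5 and 44 in KO spermatocytes and at 10.8, 31.9 and 21 in Het, and the groups overlapped over nearly their whole range (0.13 ± 0.50, adjusted p = 0.864). The sum of 7 myoid markers in the same libraries was 85.6, 185 and 309 in KO and 87.4, 258 and 177 in Het, the same order as Cyp26b1 within each genotype. The sign of the difference turned without KO replicate 3 or Het replicate 1 (-0.27 in each case). None of the 7 myoid markers passed between genotypes in any set. Between fractions at P18, Cyp26b1 did not pass in KO (-0.52 ± 0.45, adjusted p = 0.341) or in Het (-0.17 ± 0.45, adjusted p = 0.765). With a block for the replicate number in the limma fit, the KO value passed (adjusted p = 0.0444).

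In P18 testis Cyp26b1 was at 29.4, 37 and 42.7 in KO and at 19.5, 29.2 and 25.9 in Het. As deposited the KO libraries were all above the Het libraries, the lowest KO by a small margin, and after rescaling they overlapped. The difference did not pass (0.44 ± 0.17, adjusted p = 0.118, interval 0.01 to 0.86). The myoid sum was 230, 255 and 283 in KO and 175, 228 and 207 in Het, and its part in the result was not tested. At P14 Cyp26b1 was at 38.4, 37.9 and 38.5 in KO and at 33.6, 35.7 and 36.7 in Het, without overlap and without passing (0.11 ± 0.05, adjusted p = 0.604). Aldh1a2 divided by Cyp26b1 was 1.21, 1.11 and 0.804 in KO P18 testis and 2.94, 1.77 and 1.76 in Het, with no overlap. The groups overlapped in P14 testis (0.842 to 0.955 in KO and 0.936 to 1.06 in Het) and in spermatocytes (0.759 to 2.79 in KO and 1.69 to 5.34 in Het).

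**Figure D5:**
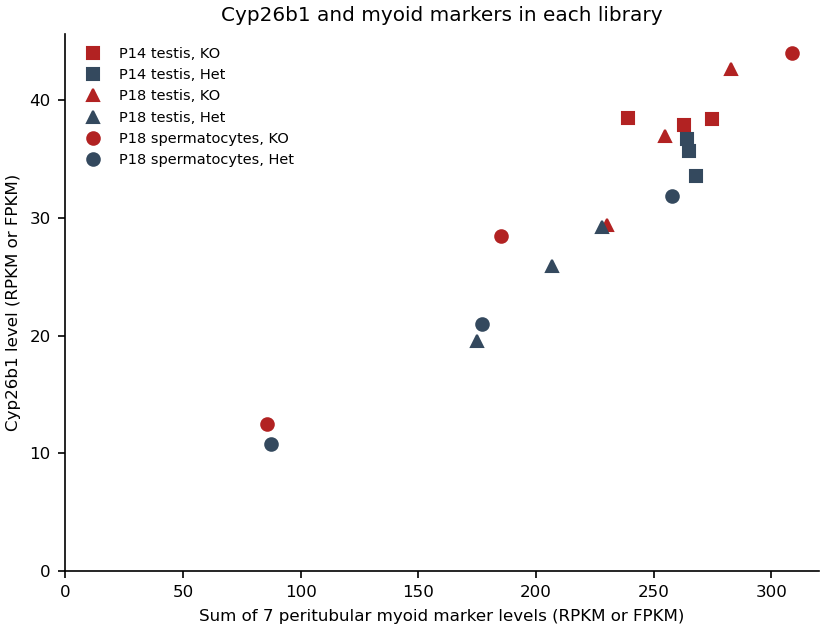
Level of Cyp26b1 against the summed level of 7 peritubular myoid markers (Acta2, Myh11, Cnn1, Tagln, Actg2, Des and Myl9) in each of the 18 libraries (RPKM or FPKM); squares are P14 testis, triangles P18 testis and circles P18 spermatocytes, red is KO and dark blue is Het. The 6 spermatocyte libraries spread from 10.8 to 44 in Cyp26b1 and from 85.6 to 309 in the marker sum, and the order of the libraries within each genotype is the same on both axes.

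Crabp1, a cytoplasmic retinoic acid binding protein known in spermatogonia, was higher in KO at P18. It was at 83.7, 106 and 87.9 in KO spermatocytes and at 48.8, 65.1 and 39.4 in Het. All KO libraries were above all Het libraries, and Crabp1 was 1.55-fold higher in KO (0.63 ± 0.15, adjusted p = 0.0152). The call ended without KO replicate 2 (0.59, adjusted p = 0.0582) or Het replicate 1 (0.62, adjusted p = 0.0563).

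In P18 testis Crabp1 was at 28.7, 32.1 and 29 in KO and at 18.7, 23.8 and 23.8 in Het, without overlap, and was 1.26-fold higher in KO (0.33 ± 0.09, adjusted p = 0.0459). That call did not survive the removal of any 1 of the 6 libraries (0.26 to 0.38, adjusted p = 0.0727 to 0.152), nor the use of no filter (adjusted p = 0.0891). In P14 testis it was at 35.1, 39.2 and 39.5 in KO and at 33.8, 35 and 30.4 in Het, with KO replicate 1 just above the highest Het library and overlapping after rescaling (0.19 ± 0.07, adjusted p = 0.526). Spermatogonial markers moved with Crabp1, with the sums given above for Rarg. Of 15 tested in spermatocytes 6 rose and 1 fell, against 9.32% higher and 25.4% lower of all genes tested. Of 16 tested in P18 testis 4 rose and 1 fell, against 5.88% and 17.2% of all genes tested. Dmrt1, given above, is one of the spermatogonial markers. Their part in the result was not tested. Crabp1 was also higher in spermatocytes than in P18 testis, by 1.60 ± 0.15 in KO (adjusted p = 3.48e-06) and 1.34 ± 0.15 in Het (adjusted p = 1.87e-05).

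Crabp2, which delivers retinoic acid to the nuclear receptors, was a gene of few reads. It was at 1.28, 1.28 and 1.26 in KO spermatocytes and at 0.461, 0.49 and 0.826 in Het, which are 18 to 23 reads in KO and 6 to 20 in Het. The groups did not overlap, but the gene passed the filter only through its KO libraries and so had to differ (0.55 ± 0.23, adjusted p = 0.106, and 0.80, adjusted p = 0.0391, without Het replicate 3). In P18 testis it was at 0.624, 0.268 and 0.768 in KO and at 0.386, 0.507 and 0.324 in Het, and in P14 testis at 0.501, 0.156 and 0.243 in KO and at 0.557, 0.421 and 0.716 in Het. Both pairs of groups overlapped, and neither was tested. Between fractions, where it also entered only through its KO spermatocyte libraries, the difference was 0.77 ± 0.23 in KO (adjusted p = 0.0136), and 0.56 without KO P18 testis replicate 2 (adjusted p = 0.056). It did not pass in Het (0.35 ± 0.23, adjusted p = 0.211).

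With age, Aldh1a1 and Crabp1 were lower at P18 than at P14 in both genotypes. Of the 7 genes tested, none was higher at P18 in KO and 2 were lower, against 48.2% of all genes tested (20.7% higher and 27.6% lower); at an unadjusted p of 0.05 there were 0 higher and 3 lower, and voom called the same numbers. In Het 1 was higher and 5 were lower, against 64.2% of all genes tested (30.1% higher and 34.1% lower). Rarb and Crabp2 were not compared, since both were below the filter, and the gene model of Rarb also differed between the ages. Age cannot be told apart from the unit, RPKM at P14 and FPKM at P18.

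Aldh1a1 had the largest difference with age, -1.02 ± 0.09 in KO (adjusted p = 3.05e-06) and -1.33 ± 0.09 in Het (adjusted p = 2.73e-07). Crabp1 was lower at P18 by a log2 difference of -0.60 ± 0.09 in KO (adjusted p = 0.000161) and -0.73 ± 0.09 in Het (adjusted p = 2.4e-05). Cyp26b1 was at -0.35 ± 0.13 in KO (adjusted p = 0.0507) and was lower in Het (-0.66 ± 0.13, adjusted p = 0.00123). The KO value of Cyp26b1 passed under 7 of 21 alternatives. It did so without KO P18 testis replicate 3 (-0.47, adjusted p = 0.0167) and without Het P18 testis replicate 1 (adjusted p = 0.0262) or 2 (adjusted p = 0.0343). It also passed with the replicate block (adjusted p = 0.0122) and with voom (adjusted p = 0.035). A stricter filter (adjusted p = 0.0468) and a pseudocount of 1 (adjusted p = 0.0497) gave the call too. Rarg and Stra6 did not pass in KO (-0.14 ± 0.07 and -0.02 ± 0.11) and were lower at P18 in Het (-0.18 ± 0.07, adjusted p = 0.0473, and -0.29 ± 0.11, adjusted p = 0.0396). The call of Rarg was lost under 16 of 21 alternatives, with an adjusted p of 0.0529 to 0.185 over the single-library removals that ended it (-0.19 to -0.12), each of them except Het P18 testis replicate 1 and Het P14 testis replicate 3. That of Stra6 was lost under 10, of which 7 left out 1 library (-0.32 to -0.24, adjusted p = 0.0523 to 0.127): Het P18 testis replicates 1, 2 and 3, Het P14 testis replicates 1 and 2, and replicate 2 of KO P18 testis and of KO P14 testis.

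Aldh1a2 was at -0.15 ± 0.11 with age in KO (adjusted p = 0.289), where the sign turned without rescaling (0.11), and was higher at P18 in Het (0.39 ± 0.11, adjusted p = 0.0113). The test of the difference between these differences, the interaction of genotype with age, gave -0.54 ± 0.16 and did not pass (adjusted p = 0.0765). It passed without Het P18 testis replicate 3 (-0.66, adjusted p = 0.014). None of the 7 genes passed this interaction, against 5.62% of all genes tested (0.4% higher and 5.22% lower); 1 was higher and 1 lower at an unadjusted p of 0.05, and voom called none.

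The interaction of genotype with fraction at P18 likewise passed for none of 8 genes, against 1.29% of all genes tested (0.0651% higher and 1.22% lower); 0 were higher and 2 lower at an unadjusted p of 0.05, and voom called none. Its largest values were -0.57 ± 0.23 for Aldh1a2 (adjusted p = 0.263), -0.57 ± 0.21 for Stra6 (adjusted p = 0.223) and -0.57 ± 0.43 for Aldh1a1 (adjusted p = 0.59). The fall of Aldh1a2 in KO is therefore not shown to differ between spermatocytes and testis, with an interval of the difference from -1.06 to -0.07 before adjustment. For Crabp1 the interval was -0.19 to 0.72.

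Other genes of the pathway were counted from a list of 45, which holds RXR receptors, retinol carriers, dehydrogenases and further CYP26 enzymes. In P14 testis none of 27 tested passed; at an unadjusted p of 0.05, 1 was higher and 2 were lower, and voom on 23 of them called 1 lower. In P18 testis 5 of 29 were higher and 2 lower, with a median difference of 0.17 against 0.02 over all genes, of which 5.88% were higher and 17.2% lower. Cyp26a1, a second retinoic acid hydroxylase, averaged 3.89 ± 0.626 in KO and 2.46 ± 0.156 in Het after rescaling (SD, n = 3; 0.56 ± 0.13, adjusted p = 0.0286 by limma). Rbp4, the retinol carrier of blood, was 0.45 ± 0.13 higher in KO (adjusted p = 0.0498) and Rdh13, a retinol dehydrogenase family member, 0.40 ± 0.11 higher (adjusted p = 0.0412). Rdh11, which reduces retinal, averaged 9.18 ± 0.538 in KO and 34.7 ± 12.5 in Het (-1.80 ± 0.24, adjusted p = 0.00698), and Nr2c2, an orphan nuclear receptor, was lower as well (-0.47 ± 0.12, adjusted p = 0.0353). The call of Rdh13 ended without any 1 of the 6 libraries (adjusted p = 0.0597 to 0.149). Those of Cyp26a1, Rbp4 and Nr2c2 ended without any 1 except Het replicate 3 (adjusted p = 0.0531 to 0.0977, 0.105 to 0.157 and 0.0516 to 0.0892).

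In spermatocytes 3 of 23 list genes were higher in KO and 6 lower, with a median of 0 against -0.05 over all genes. These shares are near those of all genes tested, 9.32% higher and 25.4% lower. Rxra, the dimer partner of the RARs, was at 11.4, 14.4 and 13.9 in KO and at 7.34, 8.57 and 5.25 in Het. The groups did not overlap, and Rxra was higher in KO (0.65 ± 0.15, adjusted p = 0.0151). Adh5, an alcohol dehydrogenase, rose by 0.63 ± 0.15 (adjusted p = 0.0151). Without KO replicate 2 both calls ended (adjusted p = 0.0586 for Rxra and 0.057 for Adh5), and that of Rxra also ended without KO replicate 3 (adjusted p = 0.0601). Rdh11 was lower again (-1.98 ± 0.28, adjusted p = 0.00187), as was Bco2, which cleaves carotenoids (-1.19 ± 0.19, adjusted p = 0.00298). Bco2 was at 1.2, 0.93 and 0.924 in KO and at 2.78, 2.24 and 2.63 in Het, so that only 1 KO library reached the filter and the gene would not have entered without its Het libraries. Adh4, a retinol-oxidising alcohol dehydrogenase, was at 0.116, 0.194 and 0.1 in KO and at 1.54, 1.86 and 3.05 in Het (-2.15 ± 0.29, adjusted p = 0.00141), and it entered the test only through its Het libraries, so it had to differ.

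Genes known to be induced by retinoic acid were counted from a list of 14, which shares genes such as Cyp26a1 and Dhrs3 with the pathway list. In P14 testis none of 10 tested passed, none had an unadjusted p under 0.05 and voom called none of 9. In P18 testis 4 of 10 rose in KO and none fell (6 higher and 0 lower at an unadjusted p of 0.05, and 4 and 0 with voom), with a median of 0.32 against 0.02 over all genes. In spermatocytes 3 of 7 rose and none fell (3 and 0 at an unadjusted p of 0.05, and the same with voom), again with a median of 0.32, against -0.05. Of all genes tested, 5.88% were higher and 17.2% lower in KO P18 testis, and 9.32% and 25.4% in KO spermatocytes.

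Stra8, which germ cells need for meiotic entry, was at 52.2, 58.1 and 56.3 in KO P18 testis and at 34.5, 40.7 and 40.8 in Het (0.41 ± 0.07, adjusted p = 0.0119). In spermatocytes it was at 114, 117 and 103 in KO and at 76, 72.4 and 48 in Het (0.54 ± 0.15, adjusted p = 0.0289). The KO and Het libraries did not overlap in either set. The call in P18 testis ended without KO replicate 2 or 3 or Het replicate 2 (adjusted p = 0.053 to 0.0687), and that in spermatocytes without any 1 KO library (adjusted p = 0.0564 to 0.0701). Gm4969, the gene of the STRA8 partner MEIOSIN, rose in P18 testis (0.59 ± 0.06, adjusted p = 0.00443). It did not pass in spermatocytes (0.32 ± 0.16, adjusted p = 0.152). Kit, the receptor of differentiating spermatogonia, was at 29.9, 34.5 and 34.4 in KO spermatocytes and at 19.2, 19.3 and 14 in Het (0.67 ± 0.12, adjusted p = 0.00542), again without overlap. Rec8, a meiotic cohesin, rose in spermatocytes by 0.39 ± 0.13 (adjusted p = 0.0497), a call that ended without any 1 KO library or Het replicate 1 (adjusted p = 0.0695 to 0.11). In P18 testis neither Kit (0.30 ± 0.13, adjusted p = 0.133) nor Rec8 (0.28 ± 0.10, adjusted p = 0.0953) passed. Stra8 and Kit also stand in the list of spermatogonial markers, whose sums are given above, and their part in the result was not tested.

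Over the 18 libraries each gene had other genes with nearly the same pattern, measured by Pearson's r of log2 levels among 12772 protein-coding genes. Nearest to Rara were Wsb2, Fam102a and Ddit4 (r = 0.994 each). Nearest to Aldh1a1 were Tuba1a and Kitl (0.998 each) and Mef2c (0.997), and nearest to Stra6 were Col18a1 and Map1lc3b (0.997 each) and Atp1b1 (0.996). Crabp1 was nearest to Gli3 (0.993), Cbx2 (0.992) and Wwc1 (0.991), and Rarg to Dctpp1 (0.983), Nans and Map3k5 (0.982 each). For Aldh1a2 they were Ccni (0.982), Slain2 (0.978) and Ralgps2 (0.976), and for Cyp26b1 Ltbp4 (0.973), Col4a2 (0.967) and Sorcs2 (0.963). Crabp2 had the lowest values, with Tm9sf2 at 0.873, Atp5f1 at 0.866 and Cnbp at 0.84. Among the genes themselves, r was 0.98 between Stra6 and Aldh1a1 and between Rara and Stra6, 0.96 between Rarg and Crabp1, and -0.45 to -0.04 between Aldh1a2 and each of the others. The 18 points fall into 3 sets of libraries, so these values mainly compare the sets, and they are given as a description.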

How the data were processed

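The authors deposited 1 table per library: RPKM values in P14 testis and in the spermatocytes, FPKM values in P18 testis. The tools CASAVA 1.9, STAR 2.6.1a, featureCounts and edgeR 3.28.1 and the build GRCm38 are named in the submitters' processing notes. RNA was taken with Trizol and libraries were made with NEBNext kits, per the labels' protocols. Read numbers were recovered from the steps of low values and GENCODE gene lengths (93.75% to 99.17% whole within 0.02). As the values are not counts, they were scaled between libraries by the trimmed mean of M values method (30% of M and 5% of A trimmed). limma 3.58.1 in R 4.3.3 then tested log2(value + 0.5) for each gene that reached 1 in 3 or more libraries of a fit; fold changes on that scale understate the change of low genes. Fits were tested on simulated data. Comparisons across ages used only genes with 1 length in all libraries of the fit, and 44823 genes had 1 length in all 18 libraries. Symbols shared by several genes were left out. Levels and overlaps are as deposited unless called rescaled. The genes and lists were chosen with earlier results of these data known; list genes are named if past the threshold, up to 3 with the largest rise and 3 with the largest fall in a comparison, and beyond this rule Sycp3, Ldhc, Clu, Acta2 and Dmrt1 are marker values chosen after they were seen. Some genes that meet this rule are not reported here. No library was a copy of another. Where replicates are not separate animals, p-values measure only the spread between these samples.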

Additional observations from a re-analysis of the deposited data

Results flagged for a closer look

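Of the genes of the pathway and of the retinoic acid response, 3 differed in their KO-Het difference between ages or fractions by the interaction test (limma, adjusted over all genes tested). Rdh11 differed between ages by -1.42 ± 0.29 (adjusted p = 0.0233): it was at 9.29, 10.1 and 9.18 in KO P18 testis and at 44.4, 31.8 and 23.3 in Het, and at 5.59, 5.98 and 6.4 in KO P14 testis and at 7.73, 7.09 and 9.23 in Het. All KO libraries were below all Het libraries at both ages. The call ended without P18 testis KO replicate 1 or 3 or Het replicate 2, or P14 testis KO replicate 2 or 3 or Het replicate 2 (adjusted p = 0.0557 to 0.0755), in 1 fit over all 18 libraries (adjusted p = 0.0662) and with voom (adjusted p = 0.0885).

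Gm4969 differed between ages by 0.48 ± 0.11 (adjusted p = 0.04): it was at 35.6, 38.2 and 36.3 in KO P18 testis and at 21.3, 21.8 and 24.4 in Het, and at 18.9, 23.6 and 23 in KO P14 testis and at 19.1, 21.2 and 20.3 in Het, where the groups overlapped. Among removals of 1 library, those of P14 testis KO replicate 2 and P18 testis Het replicate 3 kept the call, and the others gave an adjusted p of 0.052 to 0.104. The call also ended with no filter (adjusted p = 0.0678), in 1 fit over all 18 libraries (adjusted p = 0.213) and with voom (adjusted p = 0.0547).

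Adh4 differed between fractions by -2.23 ± 0.34 (adjusted p = 0.0222): beside its spermatocyte levels it was at 5.12, 3.13 and 4.63 in KO P18 testis and at 3.56, 4.49 and 3.83 in Het, with overlap. The call ended without spermatocyte KO replicate 1 or 2, or P18 testis KO replicate 1 or 3 or Het replicate 2 or 3 (adjusted p = 0.0518 to 0.0766).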

How the results depend on the processing

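With 3 libraries per group most calls near the threshold were lost when 1 library was left out. Rarb and Crabp2 were below the filter in the testis sets. Crabp2 had 4 to 18 reads per testis library, and Rarb had 7 to 20 reads per P18 testis library. Over all gene values recomputed, 1848 kept direction and side of the threshold, 136 lost the call, 39 gained it and 42 changed sign; the cause was not tested.

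Among all genes, KO against Het called 29 in P14 testis, and 18 with a pseudocount of 0.1, 4 with no filter, 19 with a stricter filter, 18 with a replicate block, 201 with voom and 0 to 97 without 1 library. P18 testis called 4333, and 2831 with the block and 1544 to 4267 without 1 library. Spermatocytes called 5538, and 8399 in 1 fit over all 18 libraries and 3367 to 5274 without 1 library. The age interaction called 1039, and 442 in 1 fit, 475 with the block, 63 with voom and 24 to 2103 without 1 library. The fraction interaction called 257, and 86 with median-of-ratios scaling, 392 and 158 with pseudocounts of 0.1 and 1, 92 with no filter, 780 in 1 fit and 20 to 357 without 1 library.

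Of the 9 genes, the number higher in KO P18 testis was 2, and 1 with no filter or in 1 fit, 0 with the replicate block and 0 to 1 without 1 library; the number lower was 1, and 0 with no filter and 0 to 1 without 1 library. In spermatocytes the number higher was 1, and 3 as deposited or in 1 fit, 2 with median-of-ratios scaling and 0 to 2 without 1 library. The age interaction gave 0 lower, and 0 to 1 without 1 library. Between P18 and P14 the number higher in KO was 0, and 1 as deposited. In Het the number higher was 1, and 0 in 1 fit, and the number lower was 5, and 3 as deposited or with no filter, 2 in 1 fit and 3 to 5 without 1 library.

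Signs turned only for uncalled values. Leaving out 1 library, P14 testis gave -0.05 to 0.09 for Stra6, -0.1 to 0.09 for Aldh1a1, -0.09 to 0.01 for Aldh1a2, -0.02 to 0.24 for Cyp26a1, -0.04 to 0.13 for Rec8 and -0.02 to 0.12 for Stra8, P18 testis -0.12 to 0.18 for Adh4 (0.08 as deposited), and spermatocytes -0.55 to 0.19 for Aldh1a1 and -0.27 to 0.68 for Cyp26b1. The age interaction was -0.07 to 0.11 for Rara (0.11 as deposited) and -0.02 to 0.09 for Rarg. The fraction interaction was -0.2 to 0.14 for Rara (0.06 as deposited and 0.07 in 1 fit), -0.04 to 0.35 for Rarg and -0.78 to 0.15 for Cyp26b1. P18 against P14 was -0.01 to 0.09 for Rara in KO and -0.06 to 0.12 in Het, and -0.12 to 0.07 for Stra6 in KO; as deposited, KO gave 0.1 for Rarg, 0.22 for Stra6 and 0.11 for Aldh1a2. Spermatocytes against testis gave -0.19 to 0.05 for Aldh1a2 in KO (0.05 with median-of-ratios scaling and 0.03 in 1 fit) and -0.47 to 0.26 for Cyp26b1 in Het.

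Deviations of same-numbered KO and Het libraries from their group means correlated by 0.084 to 0.104 in P14 testis and 0.054 to 0.242 in spermatocytes. Both ranges lay above those of differently numbered libraries, -0.096 to 0.021 and -0.161 to 0.032. In P18 testis the ranges overlapped (-0.028 to 0.025 and -0.051 to 0.063). The main fits did not pair libraries by replicate number, and whether the numbers mark pairs was not tested. With the replicate block the age interaction of Rdh11 (adjusted p = 0.0504) and the fraction interaction of Adh4 (adjusted p = 0.0524) missed the threshold. In P18 testis the KO against Het calls of Aldh1a1 (adjusted p = 0.0584) and Crabp1 (adjusted p = 0.05) ended as well. So did those of Cyp26a1 (adjusted p = 0.0504), Rbp4 (adjusted p = 0.105) and Rdh13 (adjusted p = 0.0927). The call of Rarg with age in Het was also lost (adjusted p = 0.0756). The block gave calls to Cyp26b1 in KO, between fractions (-0.52, adjusted p = 0.0444) and with age (-0.35, adjusted p = 0.0122). Gm4969 in spermatocytes gained a call too (0.32, adjusted p = 0.046).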
